A study of Rattus norvegicus with 6 samples.

Results

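The 9 neutrophil granule genes are Mpo, Elane, Np4, Ltf, Camp, Mmp9, Fcnb, S100a8 and S100a9. They were taken by symbol from the 17321 genes counted in islets of fetal Sprague Dawley rats, and all 9 were present. Neutrophils store antimicrobial proteins in granules that are filled one kind after another while the cell matures in blood-forming tissue. Primary granules hold myeloperoxidase, elastase and defensins, specific granules hold lactoferrin and the cathelicidin precursor, gelatinase granules hold matrix metalloproteinase 9, and the cytosol holds the calcium-binding pair S100A8 and S100A9. In the fetal rat, blood cells are made in the liver and spleen, and the hormone cells of the islet are not known as a source of granule proteins. The members were chosen because several of them differed between these libraries. Their differences are therefore described without a test.

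In each dam the fetuses of 1 uterine horn were given glucose (4 mg/min, 48 h, begun on gestational day 20), and those of the opposite horn were left as the control. Islets of 2 pooled fetal pancreata per library were picked by hand at gestational day 22 and cultured for 24 h in RPMI with 5 mM glucose, so infused and control islets shared the culture step. There were 3 control and 3 high glucose libraries in 3 dam pairs, with total counts between 18077841 and 30993532. Horn side went with treatment in every pair, and the 2 cannot be told apart. The horn letter in the names of the deposited alignments is the opposite of that in the sample titles in all 6 libraries; directions follow the treatment labels and would turn under the other naming. The islet label fitted the hormone genes: Ins1, Ins2, Gcg, Sst, Ppy and Pdx1 together measured 5949 to 26587 CPM (counts scaled to a common library size with TMM factors). This sum was uneven within pairs, at 14026, 15525 and 26587 CPM in the control libraries of pairs 1, 2 and 3. In the high glucose libraries it was 22339, 13798 and 5949 CPM, higher than control in pair 1 and lower in pairs 2 and 3. The control library of pair 1 stood apart in the members themselves: it had the highest CPM for all 7 members with counts other than Mmp9.

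The letters upstream of the genes are shown first because the defensin results below turn on a family of near copies. RefSeq promoters of the GRCr8 assembly, from 250 bases before to 50 after the start, were matched by symbol for 6 of the 9 members, and were not matched for Elane, Mmp9 and S100a8. Capitals mark 3 motifs of factors known for myeloid gene control, searched on both strands: GGAAGT (PU.1 and other ETS factors), TTGCNNAA (C/EBP) and TGTGGT (RUNX, which reads ACCACA on the other strand). No 2 matches overlapped in the promoters printed. Np4 lies at chr16:77199593-77199892 on the minus strand, Fcnb at chr3:31800139-31800438 on the minus strand and S100a9 at chr2:178490573-178490872 on the minus strand.
Np4: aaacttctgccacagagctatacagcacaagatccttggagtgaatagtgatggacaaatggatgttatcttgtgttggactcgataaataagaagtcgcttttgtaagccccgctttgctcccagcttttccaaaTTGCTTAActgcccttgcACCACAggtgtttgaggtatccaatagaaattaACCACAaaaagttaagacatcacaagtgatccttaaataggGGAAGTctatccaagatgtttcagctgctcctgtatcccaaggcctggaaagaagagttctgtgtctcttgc
Fcnb: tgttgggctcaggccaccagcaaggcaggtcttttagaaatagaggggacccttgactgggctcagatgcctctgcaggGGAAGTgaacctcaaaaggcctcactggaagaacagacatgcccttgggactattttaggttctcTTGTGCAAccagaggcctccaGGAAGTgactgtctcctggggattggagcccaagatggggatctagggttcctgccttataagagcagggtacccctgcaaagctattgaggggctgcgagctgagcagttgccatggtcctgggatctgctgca
S100a9: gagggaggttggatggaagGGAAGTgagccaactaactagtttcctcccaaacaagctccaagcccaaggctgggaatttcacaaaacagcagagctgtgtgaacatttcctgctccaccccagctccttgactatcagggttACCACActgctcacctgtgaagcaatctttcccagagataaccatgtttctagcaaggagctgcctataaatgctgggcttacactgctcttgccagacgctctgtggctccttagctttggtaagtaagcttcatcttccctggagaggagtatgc

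GGAAGT was found in 4 of the 6 member promoters (Np4, Fcnb, S100a9 and Mpo), against 22.6% of 33469 promoters of the same length. TTGCNNAA was found in Np4 and Fcnb, against 10.6% of all promoters, and TGTGGT in Np4, S100a9 and Ltf, against 17.3%. Np4 held all 3 motifs, with TGTGGT in 2 places. The Camp window held none of the 3. The motifs were chosen after the promoters were seen, so nothing is read from these counts beside the shares. These matches describe letters and show no binding.

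Of the primary granule genes, Np4 had 23 or more counts in each control library, while Mpo and Elane had more than 1 count in only 1 of them. Np4, a neutrophil alpha-defensin (rn6 chromosome 16, 75478554 to 75481111, minus strand, 3 exons), measured 34.9, 1.42 and 4.19 CPM in the control libraries of pairs 1, 2 and 3, and 0.0628, 0 and 0 CPM in the high glucose libraries. These values rest on 1206 counts in the control library of pair 1, 23 in that of pair 2, and 2 in all high glucose libraries together. Every control library was above every high glucose library, although the control library of pair 1 held 89.1% of all Np4 counts. The ratio of high glucose to control CPM was 0.00180 in pair 1 (95% counting interval 0.000218 to 0.00651), and Np4 was at least 9.71-fold lower in pair 2 and at least 44.9-fold lower in pair 3. These bounds, and those given below for other members, put a library without a read at 3 counts and take the control count as exact. They therefore leave out counting error in the control library and are not like the intervals, which cover counting error only.

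Mpo, which makes hypochlorous acid from hydrogen peroxide (chromosome 10, 75087892 to 75098260, plus strand, 10 exons), had 387, 1 and 1 counts in control and 7, 0 and 0 in high glucose. The pair 1 ratio was 0.0196 (95% counting interval 0.00784 to 0.0408), and pairs 2 and 3 held a single read each. Elane, the neutrophil elastase gene (chromosome 7, 12638320 to 12640168, minus strand, 5 exons), had 93, 0 and 0 counts against 0, 1 and 0. It was at least 28.6-fold lower in pair 1, and in the other pairs no difference was detectable at this depth. Both genes were thus seen almost only in the control library of pair 1, which held 97.7% of the Mpo counts and 98.9% of the Elane counts. The mean log2 difference of Elane was -1.50 ± 3.26 (SD, n = 3 pairs) and 0.34 without pair 1.

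**Figure D1:**
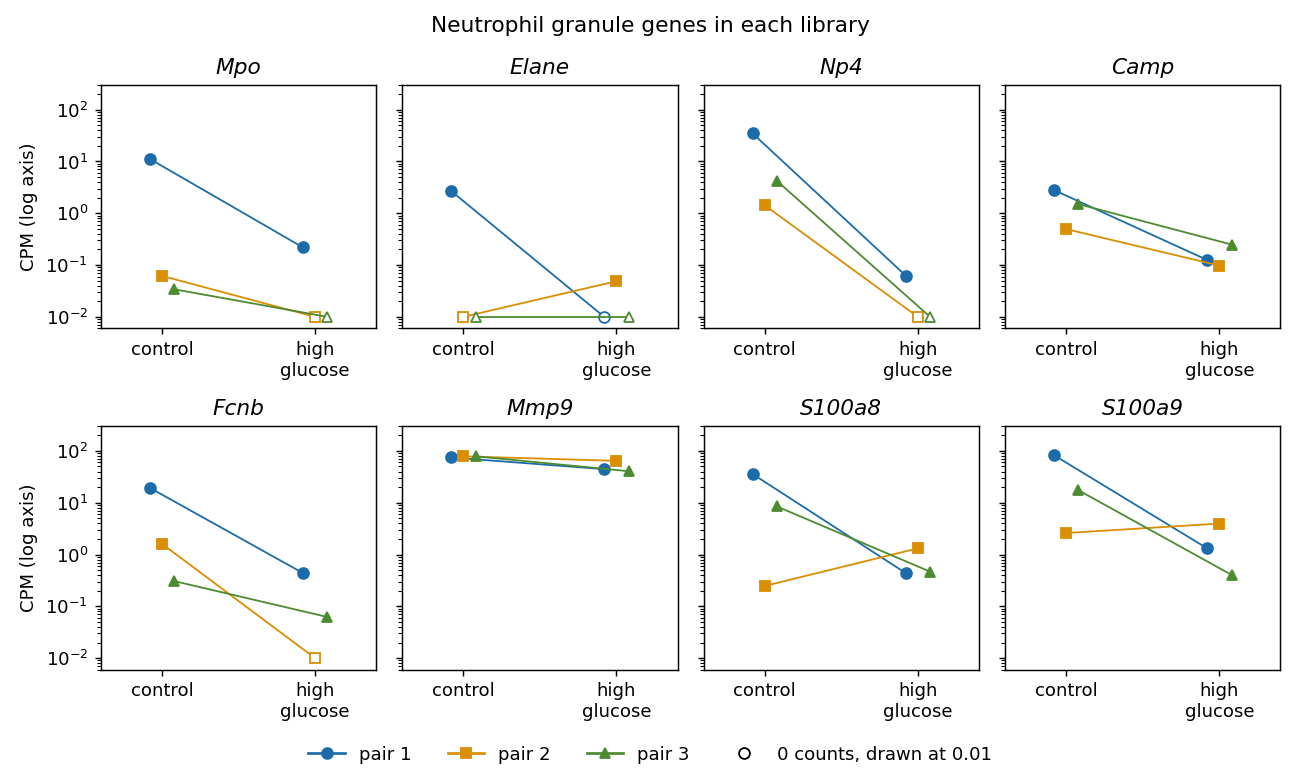
CPM (log axis) of the 8 members with counts in each control and high glucose library, joined within each dam pair; open symbols mark libraries with 0 counts, drawn at 0.01. Np4, Camp and Mmp9 are lower in high glucose in all 3 pairs with no overlap of the groups, whereas S100a8 and S100a9 are higher in pair 2.

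Of the specific granule genes, Camp was counted and Ltf was not. Camp, which encodes the precursor of the cathelicidin peptide (chromosome 8, 117930558 to 117932371, minus strand, 4 exons), had 97, 8 and 44 counts in control and 4, 2 and 8 in high glucose. The groups did not overlap (0.495 to 2.81 CPM against 0.0976 to 0.249 CPM). Its ratios were 0.0447 in pair 1, 0.197 in pair 2 and 0.166 in pair 3, with 95% counting intervals of 0.0120 to 0.118, 0.0204 to 0.989 and 0.0675 to 0.357. Camp was spread over the pairs more evenly than the primary granule genes, with 59.5% of its counts in the control library of pair 1. Ltf, the lactoferrin gene (chromosome 8, 119290416 to 119313261, plus strand, 17 exons), had 0 counts in all 6 libraries, which allows up to 0.0869 to 0.185 CPM depending on the library.

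Mmp9, the gelatinase that cuts type IV collagen (chromosome 3, 161413410 to 161421473, plus strand, 13 exons), behaved unlike the other members. It had 2576, 1271 and 2312 counts in control and 1414, 1316 and 1301 in high glucose, or 74.6, 78.6 and 78.8 CPM against 44.4, 64.2 and 40.5 CPM. The 3 control libraries lay within a narrow range and the groups did not overlap, but the ratios of 0.596, 0.817 and 0.514 were far nearer to 1 than those of Np4 or Mpo. Mmp9 measured 40.5 CPM in the high glucose library of pair 3, where Mpo, Elane and Np4 had 0 counts. Macrophages and stromal cells are known to make Mmp9 as well as neutrophils, and its source in these libraries was not tested. Fcnb, a ficolin of myeloid cells that binds microbial sugars (chromosome 3, 6617816 to 6626193, minus strand, 9 exons), had 670, 26 and 9 counts in control against 14, 0 and 2. Its ratio was 0.0227 in pair 1 (95% counting interval 0.0123 to 0.0383) and 0.203 in pair 3 (0.0213 to 0.980), and it was at least 11.0-fold lower in pair 2. Its groups overlapped, since the high glucose library of pair 1 (0.440 CPM) was above the control library of pair 3 (0.307 CPM).

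S100a8 and S100a9 encode the subunits of calprotectin, which binds calcium, zinc and manganese. S100a8 (chromosome 2, 190073814 to 190074333, plus strand, 2 exons) had 1239, 4 and 248 counts in control and 14, 27 and 15 in high glucose. S100a9 (chromosome 2, 190097438 to 190100119, minus strand, 3 exons) had 2861, 42 and 511 counts against 42, 81 and 13. Both were lower in high glucose in pairs 1 and 3 and higher in pair 2. For S100a8 the ratio of high glucose to control was 0.0123 in pair 1 (95% counting interval 0.00668 to 0.0206), 5.33 in pair 2 (1.86 to 21.0) and 0.0552 in pair 3 (0.0304 to 0.0929). For S100a9 it was 0.0159 (0.0115 to 0.0216), 1.52 (1.04 to 2.27) and 0.0232 (0.0123 to 0.0401). The turn in pair 2 was thus beyond counting error for both subunits, and the control library of pair 2 was the lowest of the 6 for S100a8. The mean log2 difference was -2.66 ± 4.28 for S100a8 and -3.50 ± 3.56 for S100a9 (SD, n = 3 pairs), and -5.08 and -5.57 without pair 2. Leaving out pair 1 instead gave -0.94 and -2.29.

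The proportion of the calprotectin subunits differed between libraries. The S100a9 to S100a8 ratio per kilobase of transcript was 1.69, 7.70 and 1.51 in the control libraries of pairs 1, 2 and 3, and 2.20, 2.20 and 0.635 in the high glucose libraries. The 3 high glucose values rest on 14, 27 and 15 counts of S100a8 and the control value of pair 2 on 4. In counts, the 95% interval of the ratio was 2.16 to 2.47 in the control library of pair 1, and those of the control library of pair 2 (3.81 to 40.3) and the high glucose library of pair 3 (0.380 to 1.95) lay outside it.

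**Figure D2:**
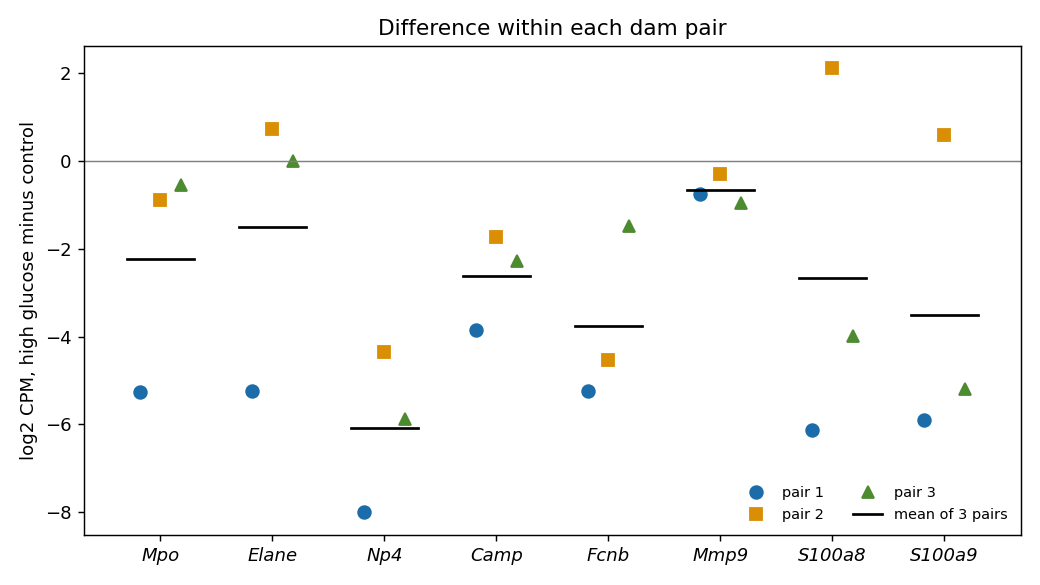
Difference in log2 CPM (prior count 2), high glucose minus control, within each of the 3 dam pairs for the 8 members with counts; horizontal bars are the mean of the pairs. All 8 members lie below 0 in pair 1, and Elane, S100a8 and S100a9 lie above 0 in pair 2.

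Across the members, 5 of the 9 (Np4, Camp, Mmp9, Fcnb and Mpo) had a lower CPM in the high glucose library of all 3 pairs. Over all 12276 tested genes this held for 11.3%, and since the members were chosen from this contrast nothing is read from their count. It was also 5 without pair 1, counted over the 2 pairs left. Apart from small changes in scaling, such a count cannot fall when a pair is left out. In 3 members (Np4, Camp and Mmp9) the groups did not overlap, with high glucose lower, against 2.10% of tested genes. A filter on low counts kept 6 members and dropped Mpo, Elane and Ltf, which are thus not among the tested genes that give these shares. Mpo was lower in pairs 2 and 3 by 1 count against 0 in each.

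Per kilobase of transcript, the order of the members differed between the groups. In control, S100a9 averaged 70.4 CPM per kilobase (RPKM), S100a8 41.6, Np4 27.4, Mmp9 25.9, Fcnb 6.31, Camp 2.74, Mpo 1.92 and Elane 0.992. The spread over libraries was wide (5.33 to 170 RPKM for S100a9, 0.693 to 101 for S100a8 and 2.88 to 70.8 for Np4), so that most neighbours in this order overlapped. The exception was Mmp9, whose 25.0 to 26.4 RPKM lay above the 0.272 to 17.2 RPKM of Fcnb in every control library. In high glucose, Mmp9 led with 16.7 RPKM (13.6 to 21.5), above all other members in each of the 3 libraries. S100a9 followed with 3.89, S100a8 with 2.08 and Camp with 0.269, and Fcnb, Np4, Mpo and Elane averaged 0.149 RPKM or less. Without Mmp9 the members together took 211, 5.75 and 31.3 CPM of unscaled total counts in the control libraries of pairs 1, 2 and 3, and 2.75, 4.90 and 1.27 in the high glucose libraries. The exact 95% binomial intervals were 206 to 217, 4.70 to 6.97 and 29.3 to 33.4 in control and 2.19 to 3.40, 4.03 to 5.90 and 0.898 to 1.74 in high glucose. The control library of pair 1 was the highest of the 6, and in pair 2 the intervals of the groups overlapped. In pooled tissue, fewer neutrophils and less RNA per neutrophil cannot be told apart.

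Np4 was not the only defensin counted. The files hold 11 rows of alpha-defensins, all on rn6 chromosome 16, and 4 of them had more than 10 counts in all. Defa5 had 917, 0 and 92 counts in the control libraries of pairs 1 to 3 and 2, 5 and 0 in high glucose. RatNP-3b had 652, 0 and 94 counts against 5, 0 and 1, and Defa11 had 87, 0 and 4 counts against 0 in each. All 4 had their highest count in the control library of pair 1 and their second highest in the control library of pair 3, while in pair 2 Np4 was the only 1 of the 4 with counts in the control library. Defa10, Defa7 and Defa8 had 4, 2 and 1 counts in all, and Defa24, Defal1, Defa6 and Defa9 had 0 counts in every library. Reads that fit several copies equally well were dropped by the quality minimum of the counting, so the split between these genes is uncertain.

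**Figure D3:**
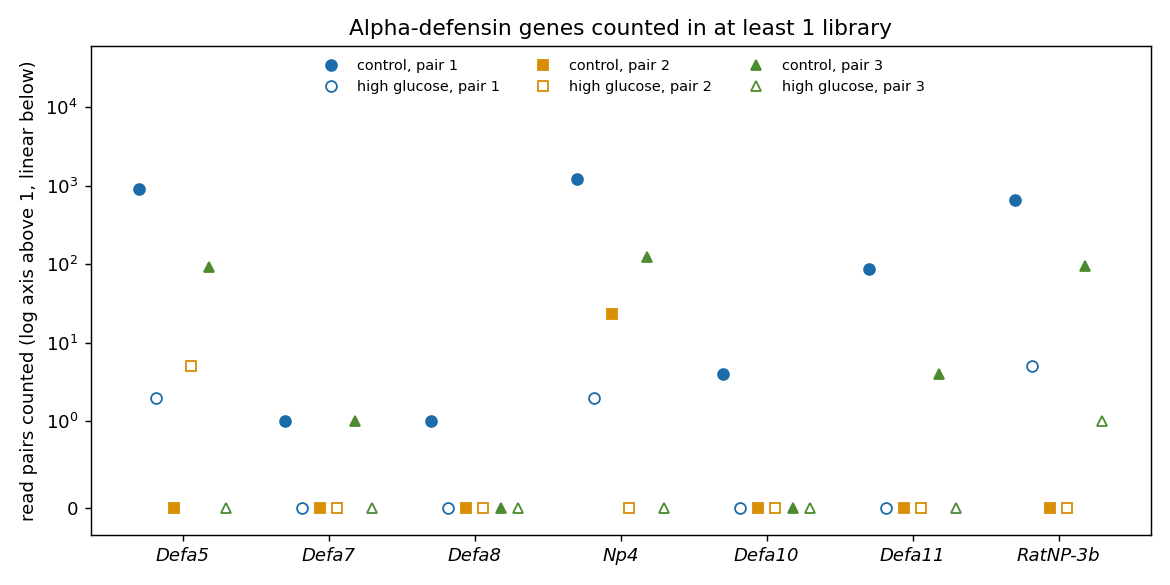
Read pairs counted for the 7 alpha-defensin genes with a count in at least 1 library (log axis above 1, linear below), by library; filled symbols are control and open symbols high glucose. Defa5, Np4, Defa11 and RatNP-3b share a high in the control library of pair 1, and Np4 alone has counts in the control library of pair 2.

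Promoters were matched for 3 of these 4 counted defensins, all but Defa5, and were near copies of each other. Np4 shared 92.2% of aligned bases with RatNP-3b (259 of 281) and 91.3% with Defa11 (252 of 276), and RatNP-3b shared 91.8% with Defa11. Np4 shared 63.6% with Defa9, a gene at 0 counts, within the 56.8% to 69.4% seen over the 33 other pairs among these promoters. The 3 promoters other than that of Np4 are printed in the same way (GRCr8 chr16:77248928-77249227 on the minus strand for RatNP-3b, chr16:77237992-77238291 on the minus strand for Defa11 and chr16:77184018-77184317 on the plus strand for Defa9), with the same motifs in capitals.
RatNP-3b: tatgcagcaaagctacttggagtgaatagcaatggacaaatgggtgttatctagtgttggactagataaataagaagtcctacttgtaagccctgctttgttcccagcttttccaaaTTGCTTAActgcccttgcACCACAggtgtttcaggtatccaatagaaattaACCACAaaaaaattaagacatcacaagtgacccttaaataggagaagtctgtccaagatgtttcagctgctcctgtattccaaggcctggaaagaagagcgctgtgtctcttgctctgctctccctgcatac
Defa11: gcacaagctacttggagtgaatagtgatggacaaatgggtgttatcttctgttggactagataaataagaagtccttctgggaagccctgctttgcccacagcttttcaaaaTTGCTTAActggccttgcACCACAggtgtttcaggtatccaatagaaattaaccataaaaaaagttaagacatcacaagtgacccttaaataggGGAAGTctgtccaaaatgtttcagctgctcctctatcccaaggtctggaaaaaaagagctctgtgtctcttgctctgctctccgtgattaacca
Defa9: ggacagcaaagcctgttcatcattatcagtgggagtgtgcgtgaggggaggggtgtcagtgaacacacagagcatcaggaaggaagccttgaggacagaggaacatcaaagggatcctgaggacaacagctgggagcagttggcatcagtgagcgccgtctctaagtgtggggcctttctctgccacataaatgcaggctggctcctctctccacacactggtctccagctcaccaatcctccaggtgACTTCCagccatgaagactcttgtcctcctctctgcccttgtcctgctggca
TTGCTTAA, a match to TTGCNNAA, stood in Np4, RatNP-3b and Defa11. The match to GGAAGT near the start of Np4 was also in Defa11, whereas the RatNP-3b window did not hold these letters. Defa9 held 1 match, to GGAAGT on the other strand (ACTTCC).

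Other genes of neutrophils were then taken from lists drawn up by function: granule proteins, surface receptors and signalling proteins, the NADPH oxidase and transcription factors of granulocyte formation. These lists were made with earlier results of these data known, so their counts are no independent evidence beside the members. Of 45 listed genes 41 were in the files and 32 were tested. None passed in either direction over all genes (edgeR quasi-likelihood, smallest adjusted p = 0.203, against 0.0163% of all tested genes called). At an unadjusted edgeR p below 0.05 there were 14, of which 13 were lower in high glucose, where 4.82% of all tested genes stood at this level and 3.15% did so in the lower direction. DESeq2 called 4 (Srgn, Cst7 and Cybb lower, Lcn2 higher), against 0.863% of all tested genes in either direction and 0.692% lower. The median fitted log2 fold change of the 32 genes was -0.63, beside 0.0041 over all tested genes, and 15 of the 32 were lower in all 3 pairs, beside 11.3% of all tested genes. Lcn2 was the 1 that was higher in all 3 pairs, beside 11.7%. Many of these genes are also used by macrophages, whose list is given below.

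Among other granule genes, Srgn, the proteoglycan that packs granule proteins, measured 45.2, 11.1 and 10.4 CPM in the control libraries and 7.95, 4.88 and 4.26 CPM in the infused ones. Its log2 fold change was -1.67 (SE 0.311, edgeR adjusted p = 0.203), and the groups did not overlap. Lyz2, the lysozyme gene of myeloid cells, measured 199, 60.3 and 116 CPM against 114, 59.4 and 35.5 CPM (edgeR adjusted p = 0.918). Ctsc, which activates the serine proteases of granules, measured 513 ± 62.4 against 543 ± 131 CPM (edgeR adjusted p = 1). Lcn2, an iron-scavenging protein of specific granules that epithelia also secrete, went the other way, with 105, 310 and 692 CPM against 191, 426 and 1189 CPM (log2 fold change 0.70, SE 0.197, edgeR adjusted p = 0.553). It was higher in all 3 pairs and lowest in the control library of pair 1, where the granule members were highest. The primary granule proteases Prtn3 and Ctsg were too low for the test: Prtn3 had 68, 10 and 5 counts in control against 4, 3 and 9, and Ctsg had 25 counts in the control library of pair 1 and 0 in the others. Ngp, a specific granule gene, had 2, 0 and 27 counts against 0, 0 and 8.

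Receptors and signalling genes held 10 tested genes with a median log2 fold change of -0.58. Selplg, the selectin ligand used for rolling on vessel walls, measured 24.1 ± 6.26 against 14.3 ± 7.05 CPM (SD, n = 3 a group; edgeR adjusted p = 0.553). C5ar1, a complement receptor, and Alox5ap, which starts leukotriene synthesis, had log2 fold changes of -0.30 and -0.47 and an edgeR adjusted p of 1. The receptors that define neutrophils were scarce: Csf3r, the receptor of the granulocyte growth factor, had 173, 33 and 107 counts in control against 80, 48 and 29, and Cxcr2, the main chemokine receptor of neutrophils, had 47, 0 and 16 counts against 5, 1 and 4. Fpr1 had 0 counts in all libraries. The oxidase genes had a median of -0.70 over 6 genes, with Cybb, its catalytic subunit, at 21.4 ± 20.2 against 8.67 ± 8.04 CPM (log2 fold change -1.24, SE 0.249, edgeR adjusted p = 0.231). Cyba, Ncf1 and Rac2 had log2 fold changes of -0.38, -0.61 and -0.89, with edgeR adjusted p-values of 1, 0.851 and 0.527. Among the transcription factors, Cebpe, which drives specific granule genes, measured 1.62, 1.67 and 0.682 CPM against 0.503, 0.342 and 0.187 CPM (log2 fold change -1.92, SE 0.607, edgeR adjusted p = 0.680). Spi1, Cebpa and Runx1 had log2 fold changes of -0.66, -0.19 and 0.47, with edgeR adjusted p-values of 0.887, 1 and 1.

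**Figure D4:**
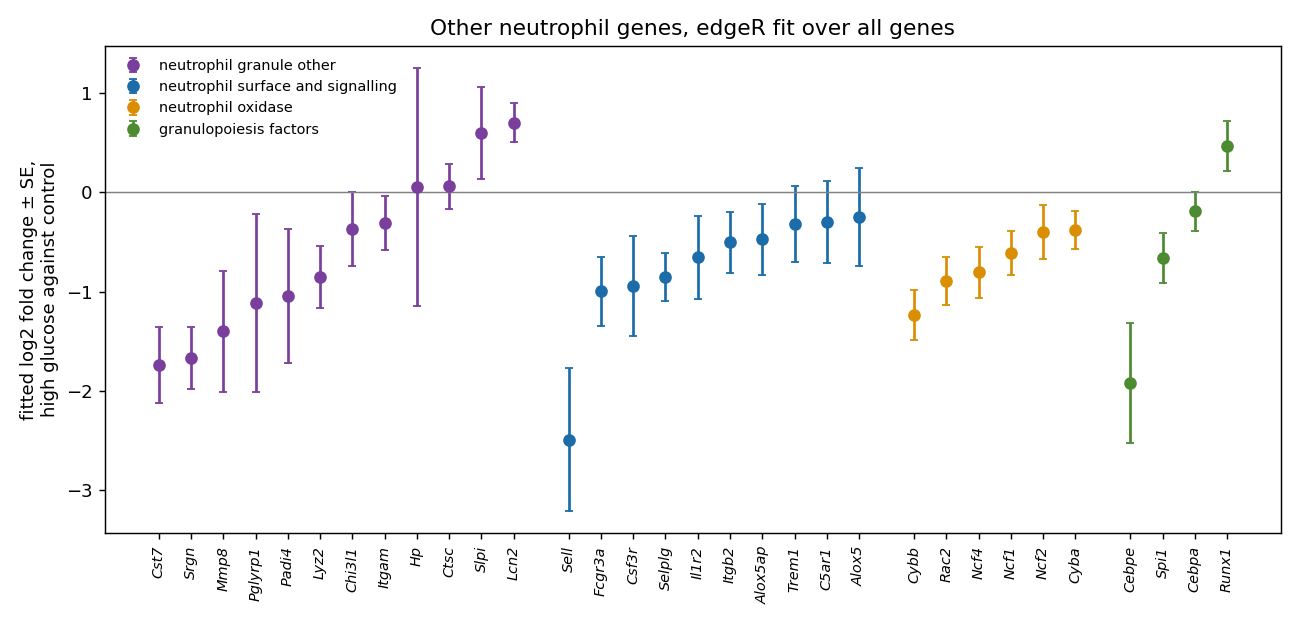
Fitted log2 fold change (high glucose against control) with its SE for the 32 tested neutrophil genes that are not among the 9 members, grouped by list. Srgn, Cst7 and Cybb lie below 0 and Lcn2 above 0 by several SE, and none passed an edgeR adjusted p below 0.05.

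Ligands that attract neutrophils did not follow the granule genes. None of the 6 tested attractant and growth factor genes was lower or higher in all 3 pairs, and none reached an unadjusted edgeR p below 0.05 or a DESeq2 call. Cxcl6, a neutrophil chemokine, had log2 differences of -1.07, 2.14 and 1.64 in pairs 1 to 3, Cxcl3 of -1.07, 0.03 and 0.42, and Cxcl12, which retains blood cell precursors, of -1.41, 0.16 and 0.34. In pair 1 these 3 genes were lower in high glucose, and in pairs 2 and 3 higher.

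Several marker lists of other blood cells were also lower in high glucose. The megakaryocyte and platelet sum, nearly all of it Pf4, was not lower in every pair. The 5 eosinophil and basophil genes (Epx, Prg2, Prg3, Il5ra and Ccr3) were all highest in the control library of pair 1. Their summed level was 1.92 to 55.2 CPM in the control libraries and 0.440 to 0.830 CPM after infusion, although neither of the 2 tested genes passed (smallest edgeR adjusted p = 0.869, 1 at an unadjusted p below 0.05, and 1 called by DESeq2). Prg2, the major basic protein of eosinophils, measured 35.9, 0.989 and 1.91 CPM in control against 0.0628, 0.195 and 0.249 CPM. The 9 erythroid genes in the files summed to 402 to 1602 CPM against 85.3 to 604 CPM, with all 8 tested genes lower in all 3 pairs. Most of each sum was Hbb, at 342 to 1338 CPM against 82.0 to 570 CPM. Of the 8 tested genes, Car1, a carbonic anhydrase gene of red cells, was called (edgeR adjusted p = 0.000793), 6 stood at an unadjusted p below 0.05 and DESeq2 called 7. Over all tested genes these shares were 0.0163%, 4.82% and 0.863%. The 9 macrophage genes, where none passed (4 at an unadjusted edgeR p below 0.05 and 0 called by DESeq2), summed to 721 to 1013 CPM against 434 to 835 CPM. The complement gene C1qa measured 184 ± 13.6 against 117 ± 24.2 CPM (SD, n = 3; edgeR adjusted p = 0.597). Of the 9 macrophage genes, 4 were lower and 0 higher in all 3 pairs, beside 11.3% and 11.7% of all tested genes. Mrc1, Cd14 and Cd163 did not share the difference of C1qa, with log2 fold changes of 0.35, -0.02 and -0.09. Mast cell genes summed to 9.34 to 16.1 CPM against 2.93 to 7.67 CPM, and lymphocyte genes to 1.30 to 11.4 CPM against 0.623 to 1.27 CPM. In these lists edgeR called none, and DESeq2 called 1 mast cell gene, Mcpt2, lower in high glucose. The 1 tested megakaryocyte and platelet gene, the platelet chemokine Pf4, measured 98.6, 49.9 and 76.9 CPM against 70.2, 54.8 and 80.1 CPM, lower in pair 1 and higher in pairs 2 and 3 (log2 fold change -0.10, edgeR adjusted p = 1). Ppbp and Gp9 of this list were too low for the test. Ppbp had 19, 1 and 4 counts in control against 0, 0 and 1, lower in all 3 pairs. Gp9 had 55, 0 and 2 counts against 6, 2 and 1. Genes of basal epithelium, a tissue that can make S100a8 and S100a9, summed to 23.3 to 110 CPM against 72.5 to 201 CPM, but nearly all of this was the keratin gene Krt17. Krt17 measured 21.7, 97.4 and 101 CPM against 71.3, 199 and 189 CPM (log2 fold change 1.21, SE 0.207, edgeR adjusted p = 0.143). DESeq2 called Krt17 (adjusted p = 0.00015). Of the 4 genes in the files Krt17 alone was higher in all 3 pairs, and Krt5, Krt14 and Sprr1a had log2 fold changes of 0.0055, 0.41 and -1.60 (each edgeR adjusted p = 1). In pair 2 the eosinophil and erythroid sums were lower in high glucose, as for Np4 and Fcnb, while S100a8 and S100a9 were higher. The part of these other cells in the members' differences was not tested.

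**Figure D5:**
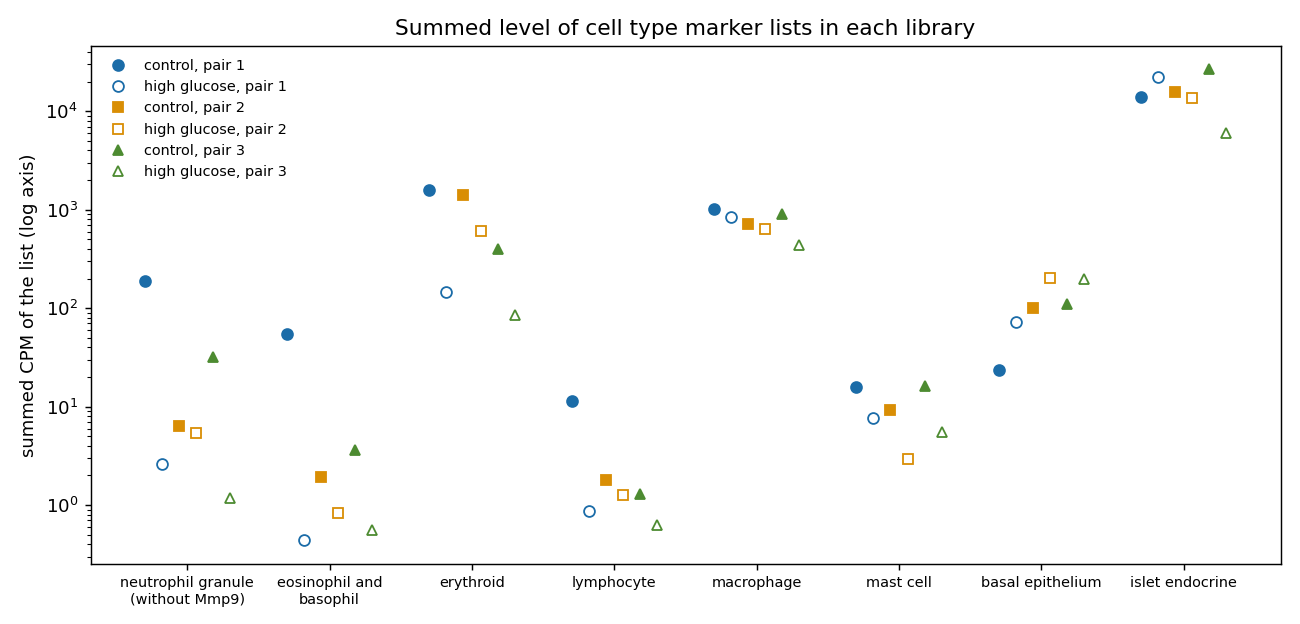
Summed CPM (log axis) of cell type marker lists in each library, with filled symbols for control and open symbols for high glucose. The neutrophil granule sum without Mmp9, the eosinophil and basophil sum and the lymphocyte sum are highest in the control library of pair 1, where the basal epithelium sum, nearly all Krt17, is lowest.

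Genes whose profile over the 6 libraries lay nearest to that of the members were found by the root mean square distance between centred log2 CPM values, taken to the median profile of the 6 members tested. That profile stood at 4.22, 0.20 and 1.71 log2 units in the control libraries and at -1.61, -1.04 and -1.99 in the high glucose libraries of pairs 1 to 3. The nearest of all other tested genes was Epb42, a red cell membrane gene, at a distance of 0.39, and near it lay the eosinophil peroxidase gene Epx (0.52), Gfi1b (0.54), LOC24906 (0.67), Prg2, Dnase1l3 and Hemgn (each 0.80). Members themselves lay at 0.76 (S100a9), 0.94 (Camp), 1.17 (S100a8), 1.35 (Np4), 1.53 (Fcnb) and 1.91 (Mmp9). The 7 named genes were nearer to the median profile than 5 of the 6 members. They were picked as the nearest among all other tested genes, so nothing is read from this order. The median distance over all other tested genes was 2.21.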

How the data were processed

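RNA sequencing of islets gave 6 libraries, 3 per group. The authors deposited unnormalized counts for each gene. Per the file headers they come from featureCounts 1.5.1, which took read pairs from the reverse strand, a minimum mapping quality of 10 and UCSC refGene models of rn6. STAR 2.5 and, beside rn6, the build mm10 are named in the submitters' processing notes. Pairs came from the title stem shared by libraries of a dam. Deviations from the group means correlated at 0.474, 0.621 and 0.413 within dams, across genes.

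Counts were tested with edgeR 4.0.16 (R 4.3.3, TMM, filterByExpr by group, robust quasi-likelihood, dam as a block, Benjamini-Hochberg over 12276 genes) and, as an alternative, with DESeq2 1.42.0. The procedure was tested on simulated counts with known changes: called genes had the right direction, but the share of false calls was above the adjusted p threshold in every draw, so edgeR calls here are somewhat liberal. Log2 CPM used a prior count of 2. Counting intervals for ratios are exact conditional binomial intervals. Promoters were aligned globally with Biopython 1.88.

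The members, lists, tests and naming rules were chosen with earlier results of these data known, and the motifs after the promoters were seen. The rule for named genes was the members, all alpha-defensins, the 8 nearest profiles (1 of them is not reported here), both neighbours of each member, and per list the called genes and the 3 highest per kilobase. Some neighbours and list genes under it are not named in the text, and further list genes were named after their values were seen. Libraries of a group came from separate dams by their titles. With the dam as a block, p-values rest on the spread of the differences within dams over the 3 pairs. The fit draws the spread of each gene towards that of other genes, so it is not that gene's spread alone. Alternatives were RLE factors, total counts alone, other filters, no block, a prior count of 0.5 and leaving out each pair.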

Additional observations from a re-analysis of the deposited data

How the results depend on the processing

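Of 12276 genes, 2 were called with the dam as a replicate block and 0 with no replicate block (edgeR, 592 at an unadjusted p below 0.05 with the block). DESeq2 called 106, no filter gave 18 and a mean count of at least 50 gave 5, while RLE factors and total counts alone gave 2. Leaving out 1 pair gave 18 to 55. The other neutrophil genes called were 0 with the block, 4 with DESeq2, and 0 to 1 without 1 pair, where the 1 (Srgn) came without pair 3. The count of members lower in every pair was 5, and 5 to 7 when a pair was left out, since S100a8 and S100a9 were lower once pair 2 was gone. Leaving out a pair can keep or raise this count and, scaling aside, cannot lower it. It was 5 with each other scaling and with a prior count of 0.5. Np4 had a mean log2 difference of -6.08, -4.96 without pair 1, -8.84 with DESeq2 and -9.08 as fitted by edgeR, a comparison added after the data were seen. The sign of Elane turned without pair 1. Values of Np4, Mpo, Elane, Camp and Fcnb in high glucose rest on 0 to 14 counts per library, which limits every ratio given for them.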

Other observations

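The nearest counted genes on each side of a member, by the coordinates of the files, did not all share its pattern. Prtn3, 3544 bases from Elane, had 68 counts in the control library of pair 1 and 3 to 10 in the others, while Cfd, 2381 bases away on the other side, had 58 to 348 counts in every control library and 81 to 145 in high glucose. S100a7a, 11280 bases from S100a8, had 17 counts in the control library of pair 1 and 0 in the other 5 libraries, and Pglyrp4, on the far side of S100a9, had 0 in all 6. Lpo, a peroxidase gene 2125 bases from Mpo, had 3 counts in all, from the control library of pair 3. The genes beside Camp were counted in every library, Nme6 at 485 to 662 and Cdc25a at 667 to 2184 counts, and Col5a1 beside Fcnb at 15164 to 43238. Ccrl2, 11037 bases from Ltf, had 235, 116 and 98 counts in control against 92, 48 and 20 in high glucose, whereas Ltf itself had none. These values carry no test and no explanation.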
